A study of Homo sapiens with 6 samples.

Results

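The 8 S100 calcium-binding protein genes described here are S100A2, S100A3, S100A4, S100A6, S100A10, S100A11, S100A13 and S100A16. They were taken by the Entrez gene IDs of these symbols from a count table of 28395 genes, and all 8 were found and passed the filter on low counts. The table measured RNA in the human chondrocyte line TC28a2, which is immortalised, collected 48 h after cells received a control vector (3 libraries) or a vector that overexpresses ZEB1 (3 libraries). ZEB1 is a zinc finger transcription factor known for repressing epithelial genes, and the study asks about it in osteoarthritis. The sources used here do not give the vector's promoter or the share of cells that took it up, and the labels do not say whether replicates are separate cultures. The p-values therefore reflect the variation among these libraries alone, and that variation may be technical.

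S100 proteins are small proteins that bind calcium through a pair of EF-hand loops, form dimers and then grip partner proteins such as annexins, myosin and p53. Some also leave the cell and signal through the receptor RAGE (gene AGER) or TLR4, and in cartilage extracellular S100A4 and S100A11 are known as RAGE ligands that act on chondrocytes. Most of the genes sit in a cluster on chromosome 1 beside the genes of the skin barrier, and cell types differ in which of them they use. These were bulk RNA samples, in which fewer cells with a transcript and less transcript per cell cannot be told apart.

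The libraries held 5359200 to 5878640 counts in the controls and 1277632, 1621270 and 3316228 counts in ZEB1 replicates 1, 2 and 3. ZEB1 itself went from 24.9 ± 6.64 CPM (SD, n = 3) to 11069 ± 3724 CPM (SD, n = 3), a log2 fold change of 8.79 (SE 0.31, edgeR adjusted p = 2.37e-13), where CPM is counts divided by the TMM-scaled library total and multiplied by 1e6, and stood at 12267, 14047 and 6894 CPM in ZEB1 replicates 1, 2 and 3. The counts do not separate vector transcripts from those of the cells' own gene. ZEB1 replicates 1 and 2 stood apart from the controls. Their counts differed from the controls by a chi-square per degree of freedom of 15.0 to 22.6, against 8.94 to 10.5 for ZEB1 replicate 3 and 7.25 to 8.62 between controls. Among the ZEB1 libraries it was 6.30 between replicates 1 and 2, 11.4 between 1 and 3, and 8.70 between 2 and 3. These values include the counts of ZEB1 itself, whose share in them was not taken out. They also rise with the depth of the libraries compared, so different pairs are not on one scale. Of 17 chondrocyte markers only SOX9 had enough counts to be tested, and CNMD, CHAD and COL9A1 were at 0 in all libraries. The summed level of markers of other cell types was 16.7 to 21.1 CPM in controls and 9.77 to 18.8 CPM with ZEB1 for 11 leukocyte genes, and 2.92 to 4.90 against 10.7 to 14.8 CPM for 8 endothelial genes. It was 82.6 to 98.8 against 77.7 to 132 CPM for 10 keratinocyte and epithelial genes, and 6.38 to 8.32 against 7.45 to 26.7 CPM for 8 glial and melanocyte genes. KRT10 alone had 80.4, 94.4 and 93.8 CPM across the controls, against 88.0, 128 and 74.2 CPM in the ZEB1 replicates. MITF alone had 5.77, 3.46 and 6.69 CPM, against 26.7, 12.9 and 6.26 CPM. The epithelial and the glial and melanocyte sums thus each rested mostly on a single gene. The endothelial sums did not overlap between the groups, but they rested on few counts. PECAM1 alone was tested, with 9, 6 and 11 counts across the controls against 4, 12 and 22 counts in the ZEB1 libraries. Its log2 fold change was 2.04 (SE 0.87, edgeR adjusted p = 0.462). CDH5 and ESAM were counted in controls only, and TEK and CLDN5 in ZEB1 libraries only. CD3E, MS4A1 and TYROBP of leukocytes, KRT5 of keratinocytes and SOX10 and DCT of glia and melanocytes were at 0 in all 6 libraries, while no endothelial marker was. The part of these markers in the S100 levels was not tested.

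TC28a2 cells expressed a restricted part of the S100 family, led by S100A6. Of 21 S100 genes in the table, the 8 described here were the ones with enough counts to be tested, 6 others had between 2 and 62 counts over all 6 libraries, and 7 had none. S100A8 and S100A12, the neutrophil alarmins, S100A7, S100A7A and S100A7L2 of inflamed skin, the glial and cartilage gene S100B and the intestinal gene S100G had 0 counts in every library. The limit that a count of 0 allows, 3 counts, was 0.510 to 0.560 CPM per control library and 0.905 to 2.35 CPM per ZEB1 library, for counting error only. S100A9, the usual partner of S100A8, was counted 9, 12 and 17 times across the controls, against 14, 3 and 7 times in ZEB1 replicates 1, 2 and 3. S100A14 had 2 counts in all, S100P 15 and S100Z 3, and of the fused-type S100 genes only TCHH was counted, 7 times.

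The genes lie on chromosome 1 in GRCh38.p14 coordinates from RefSeq, in the same assembly as the build GRCh38 that the submitters' processing notes name. S100A10 (151982915 to 151993859) and S100A11 (152032506 to 152037004) form one end. A gap of 1320.8 kb leads to S100A9, and past it and the uncounted S100A12, S100A8 and S100A7 genes come S100A6 (153534599 to 153535991), S100A4 (153543621 to 153545806), S100A3 (153547329 to 153549258), S100A2 (153561108 to 153565844), S100A16 (153606883 to 153613137) and S100A13 (153618799 to 153634361). The table holds 51 other genes that lie within this span, mostly late cornified envelope, SPRR and filaggrin family genes of the epidermis. Of these 0 were tested, 5 had any count, and the highest total was 7 counts over all libraries. The well counted S100 genes thus flanked a stretch of genes with almost no reads.

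**Figure D1:**
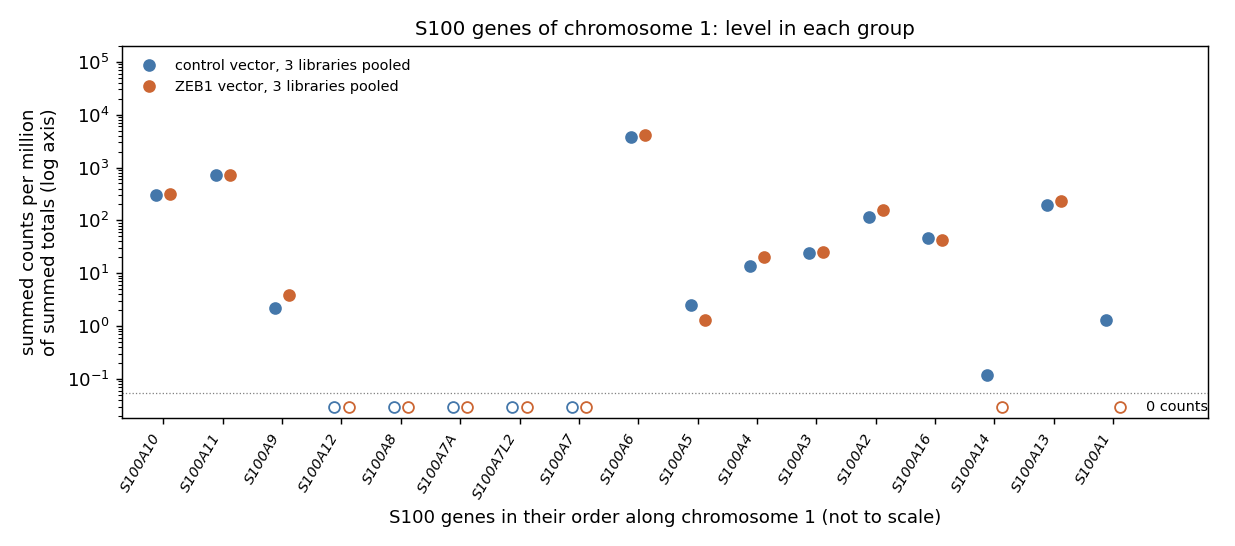
Level of the 17 S100 genes of chromosome 1 in their order along it (x axis, not to scale), as CPM of the summed counts on a log axis, for the 3 control libraries (blue) and the 3 ZEB1 libraries (orange); open circles stand for 0 counts. S100A12, S100A8, S100A7A, S100A7L2 and S100A7 had 0 counts in both groups, between S100A9 at 2.23 (controls) and S100A6 at 3792.

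The RefSeq table of promoter windows, 250 bases before to 50 after each transcript start, held all 8 genes with 12 windows. ZEB1 is known to bind the E-box CACCTG. That E-box, searched on both strands (CACCTG or CAGGTG), was found in windows of 3 of the 8 genes, S100A2, S100A4 and S100A16, and in 24.1% of the 27305 genes with a window (20.6% of all 35116 windows). The AP-1 motif TGANTCA, whose reverse complement is the same motif, was found in 2 of the 8 genes, S100A2 and S100A3, against 9.37% of all genes. No match of one overlapped a match of the other. The 250 bases before the outermost start are shown for S100A4 and S100A2, the genes with the highest fold changes over all 6 libraries, for S100A6, the most abundant, and for S100A16, with the lowest fold change and the most E-boxes. They read 5′ to 3′ on the minus strand, from which all 8 genes are transcribed, and capitals mark matches to either motif.
S100A4, chr1:153545807-153546056: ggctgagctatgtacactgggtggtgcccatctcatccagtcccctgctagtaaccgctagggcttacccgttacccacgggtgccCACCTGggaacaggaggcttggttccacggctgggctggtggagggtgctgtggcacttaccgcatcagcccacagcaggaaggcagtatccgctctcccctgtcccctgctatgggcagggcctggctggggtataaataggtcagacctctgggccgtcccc
S100A2, chr1:153565845-153566094: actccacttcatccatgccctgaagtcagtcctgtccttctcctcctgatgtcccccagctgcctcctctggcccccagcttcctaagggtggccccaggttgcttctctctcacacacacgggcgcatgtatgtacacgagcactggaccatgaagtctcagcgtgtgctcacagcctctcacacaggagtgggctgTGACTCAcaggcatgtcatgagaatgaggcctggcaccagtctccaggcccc
S100A6, chr1:153535992-153536241: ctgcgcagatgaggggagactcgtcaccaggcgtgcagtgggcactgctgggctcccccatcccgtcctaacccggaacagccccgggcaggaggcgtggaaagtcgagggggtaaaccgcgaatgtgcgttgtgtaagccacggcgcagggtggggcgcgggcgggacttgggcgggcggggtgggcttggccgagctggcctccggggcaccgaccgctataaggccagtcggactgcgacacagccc
S100A16, chr1:153613138-153613387: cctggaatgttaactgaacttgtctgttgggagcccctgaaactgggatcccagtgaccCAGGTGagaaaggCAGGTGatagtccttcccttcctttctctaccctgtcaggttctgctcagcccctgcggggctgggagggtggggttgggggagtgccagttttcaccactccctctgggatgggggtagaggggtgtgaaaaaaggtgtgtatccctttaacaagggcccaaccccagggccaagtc
The E-box of S100A4 began at position -164 from the start, and its window also held TATAAA, searched on the gene's strand only, at -31. The AP-1 match of S100A2 began at -52, and the E-box of its second, inner start at -18. S100A16 had E-boxes at -191 and -178, where 3.49% of all windows hold 2 or more, and one more at 45 of its inner start. S100A6 held neither motif. GENCODE v29 places exons of the same gene's other transcripts over part of each of these 4 windows, so that other starts exist. A match is a string of letters and not evidence of binding.

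Per length of transcript the order of levels in the control libraries ran from S100A6 to S100A4. Levels are CPM per kilobase of the longest GENCODE v29 transcript, a scale on which genes can be compared, although tags of a 3′ method need not scale with length. S100A6 stood at 5430 ± 941 and S100A11 at 1163 ± 34.9, then S100A10 at 243 ± 14.4, S100A2 at 114 ± 27.0, S100A13 at 87.5 ± 15.8, S100A16 at 39.4 ± 4.27, S100A3 at 27.0 ± 4.44 and S100A4 at 17.7 ± 1.79 (SD, n = 3). The control ranges of S100A2 and S100A13 overlapped, and those of the other neighbours in this order did not. That pair turned round in plain CPM, with no division by length, where S100A13 had 151 to 215 CPM and S100A2 82.8 to 133 CPM in the controls. With the ZEB1 vector the order of the means was the same, from 6948 ± 2200 for S100A6 to 32.4 ± 14.3 for S100A4 (SD, n = 3). There the ranges of S100A2 and S100A13, of S100A16 and S100A3, and of S100A3 and S100A4 overlapped.

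No S100 gene passed the threshold in the comparison of the ZEB1 vector with the control vector. The edgeR quasi-likelihood test with Benjamini-Hochberg adjustment called 0 of the 8 at an adjusted p of 0.05, and it called 0.00883% of the 11329 genes tested, which was ZEB1 alone. At an unadjusted p under 0.05 there were 3 of the 8, all higher (S100A2, S100A4 and S100A13), where 5.83% of all genes tested were higher at that level and 9.40% reached it in either direction. That count of 3 was 0 without control replicate 1, 1 without ZEB1 replicate 1, 1 without ZEB1 replicate 2, and 4 without ZEB1 replicate 3. DESeq2 called 0 of the 5 members to which it gave an adjusted p (7.49% of all genes with one), and limma-voom called 0 of 8 (0.194% of all genes). All 8 log2 fold changes were above 0, with a median of 0.34, where 48.5% of all genes tested were above 0 and their median was -0.01. The 8 genes share libraries and scaling, so these are not 8 separate results. When totals alone set the scale, the median of all genes went to -0.14, and the median of the 8 was 0.19 and 6 were above 0, S100A11 (-0.03) and S100A16 (-0.09) being below.

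**Figure D2:**
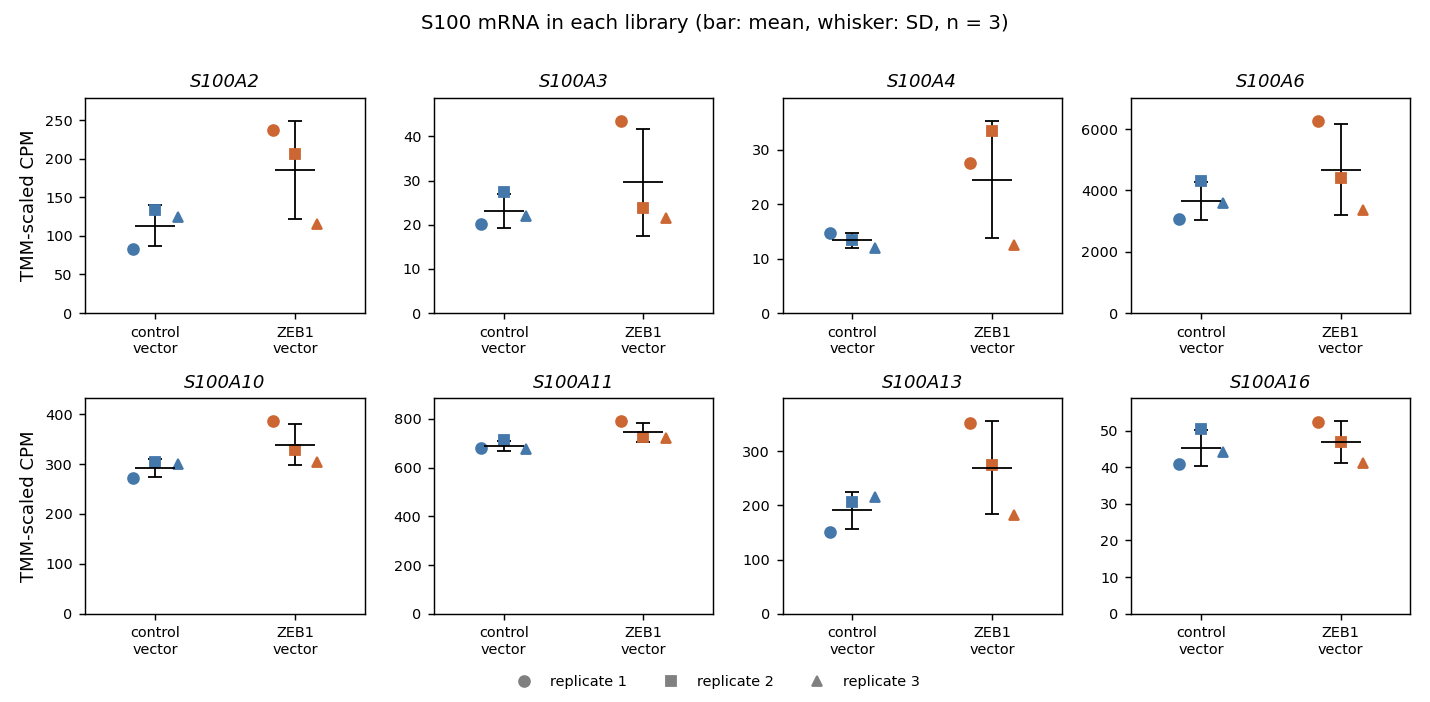
TMM-scaled CPM of the 8 S100 genes (one panel each, y axis from 0) in the 3 control libraries (blue) and the 3 ZEB1 libraries (orange), with symbols for replicates and bars for the mean ± SD. ZEB1 replicate 1 lies above all controls in every panel, and ZEB1 replicate 3 lies inside or near the control range, as with 115 CPM for S100A2 where the controls reach 133.

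S100A10 and S100A11 are partners of annexins. S100A10, also called p11, binds no calcium and joins annexin A2 in a complex that carries membrane channels and plasminogen to the cell surface. It had 273, 305 and 299 CPM in control replicates 1, 2 and 3 and 386, 328 and 304 CPM in ZEB1 replicates 1, 2 and 3. ZEB1 replicates 1 and 2 were above all controls and replicate 3 was inside their range, with a log2 fold change of 0.21 (SE 0.15, edgeR adjusted p = 0.715). S100A11, which binds annexin A1 and is known in osteoarthritic cartilage as a signal for chondrocyte hypertrophy, had 683, 714 and 675 CPM across the controls, against 790, 725 and 721 CPM in ZEB1 replicates 1, 2 and 3. It was the 1 of the 8 whose groups did not overlap, where 6.96% of all genes tested had ZEB1 libraries all above the controls, 8.16% all below, and 15.1% one or the other. The difference was small beside its error, with a log2 fold change of 0.11 (SE 0.14, adjusted p = 0.869) and an interval of 2 SE from -0.17 to 0.39. Its sign depended on the scaling. When totals alone set the scale it was -0.03. With trends in length, GC content and abundance removed it was -0.40 (limma unadjusted p = 0.0122, adjusted p = 0.527). RefSeq lists 10 pseudogenes of S100A11, and how the counting treated reads that match several places is not given, so its level is uncertain.

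S100A6 and S100A4 are cytoplasmic regulators of growth, cytoskeleton and movement. S100A6, or calcyclin, is abundant in fibroblasts and binds the ubiquitin ligase adaptor CACYBP. It had 3058, 4319 and 3586 CPM across the controls, against 6277, 4396 and 3356 CPM in ZEB1 replicates 1, 2 and 3. ZEB1 replicate 1 stood far above the controls, replicate 2 just above the highest, and replicate 3 among them. The gene lies within the annotated locus LOC124904423. The log2 fold change was 0.35 (SE 0.20, edgeR adjusted p = 0.615), and it was 0.08 without ZEB1 replicate 1. S100A6 alone took 0.327% to 0.442% of all counts in the controls and 0.553%, 0.422% and 0.340% in ZEB1 replicates 1, 2 and 3.

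S100A4, known as metastasin or fibroblast-specific protein, binds nonmuscle myosin IIA and marks mesenchymal cells. It had 14.6, 13.5 and 11.9 CPM across the controls, against 27.5, 33.4 and 12.5 CPM in ZEB1 replicates 1, 2 and 3, from 73 to 91 counts per control library and 31, 52 and 42 counts per ZEB1 library. ZEB1 replicates 1 and 2 were well above the narrow control range and replicate 3 was inside it. Its log2 fold change had the largest SE of the 8, 0.84 (SE 0.39, edgeR unadjusted p = 0.0460, adjusted p = 0.524). Without ZEB1 replicate 2 it was 0.50, below the 0.59 of S100A2 in that setting. The gene overlaps by 65 bases with S100A5, which was counted 19, 4 and 19 times across the controls, against 0, 1 and 7 times in the ZEB1 libraries.

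S100A2 and S100A3 are known best from epidermis and hair. S100A2 is a largely nuclear protein of basal keratinocytes that binds p53 and is itself a p53 target. It had 82.8, 133 and 124 CPM across the controls, against 237, 206 and 115 CPM in ZEB1 replicates 1, 2 and 3. ZEB1 replicates 1 and 2 lay above all controls, and replicate 3 lay between the controls. The log2 fold change was 0.69 (SE 0.23) with the smallest p of the 8, an unadjusted edgeR p of 0.00654 and an adjusted p of 0.275. Over the alternative settings its adjusted p ran from 0.0104 to 1.00. It passed without a filter on low counts (0.67, adjusted p = 0.0370, 0.600% of all genes called higher) and without ZEB1 replicate 3 (0.95, adjusted p = 0.0104, 2.40% of all genes called higher).

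S100A3, a cysteine-rich protein of the hair cuticle that binds zinc, had 20.05, 27.3 and 21.9 CPM across the controls, against 43.5, 23.8 and 21.4 CPM in ZEB1 replicates 1, 2 and 3. Only ZEB1 replicate 1 was above the controls. The log2 fold change was 0.32 (SE 0.33, edgeR adjusted p = 0.833), and -0.04 without ZEB1 replicate 1. The gene lies within the annotated locus LOC101928034.

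S100A13 assists the release of FGF1 and interleukin 1 alpha, which lack a signal peptide, from stressed cells. It had 151, 207 and 215 CPM across the controls, against 353, 275 and 182 CPM in ZEB1 replicates 1, 2 and 3. ZEB1 replicates 1 and 2 were above all controls and replicate 3 was among them. The log2 fold change was 0.48 (SE 0.20, edgeR unadjusted p = 0.0270, adjusted p = 0.452), and without ZEB1 replicate 3 it was 0.70 (adjusted p = 0.0308, 2.40% of all genes called higher). Without ZEB1 replicate 1 it was 0.24 (adjusted p = 0.760), and without control replicate 1 it was 0.33. Over the alternatives its adjusted p ran from 0.0308 to 1.00. S100A13 overlaps S100A1 on the other strand by 3606 bases and CHTOP by 296, and which strand setting was counted is not given, so reads of these genes cannot be told apart. S100A1, the heart and muscle form, was counted 7, 8 and 7 times across the controls and never in the ZEB1 libraries. Its 1.29 CPM in the controls was 2.67-fold above a floor of 3 counts over the ZEB1 group (0.483 CPM of the summed totals). That floor covers counting error only, and no error was set on the 22 control counts, so this is not a firm bound. S100A1 was not tested, having too few counts.

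S100A16, a widely expressed form with weak calcium binding, had 40.9, 50.5 and 44.1 CPM across the controls, against 52.4, 46.9 and 41.1 CPM in ZEB1 replicates 1, 2 and 3. The groups overlapped almost fully. Its log2 fold change was 0.04 (SE 0.23, edgeR adjusted p = 0.978), with an interval of 2 SE from -0.42 to 0.50. Changes of either sign within these bounds were thus not excluded.

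The 8 genes moved together across libraries, by different amounts. Relative to the control mean, their mean log2 CPM was -0.16, 0.15 and 0.01 across the controls, against 0.69, 0.42 and -0.04 in ZEB1 replicates 1, 2 and 3. ZEB1 replicate 3 thus lay within the control range. Ribosomal protein genes, 77 of them tested, had -0.14, 0.11 and 0.03 in the controls and 0.76, 0.43 and 0.14 in the ZEB1 replicates, the same order within each group, and 74 of the 77 had a log2 fold change above 0 (median 0.48). ZEB1 replicates 1 and 2, the libraries with the fewest counts, also had the highest S100 and ribosomal protein levels and the most ZEB1. Replicate 1 had fewer counts and higher S100 and ribosomal protein levels than replicate 2, which had more ZEB1. Depth, ZEB1 level and these levels thus cannot be told apart here. With each library thinned to 1277632 counts, the median log2 fold change of the 8 was 0.37, with all 8 above 0. Between pairs of the 8 genes, Pearson's r of log2 CPM over the 6 libraries was 0.53 to 0.98 with a median of 0.83. It was highest for S100A2 with S100A13 (0.98) and lowest for S100A4 with S100A16 (0.53). These are descriptions over 6 libraries that share scaling and group.

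**Figure D3:**
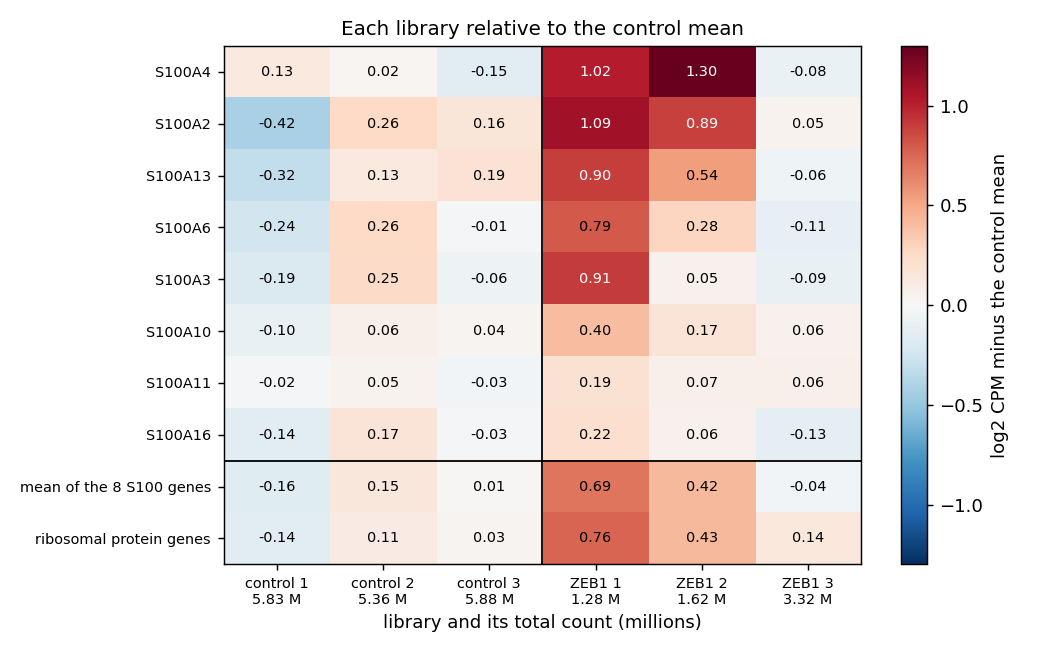
Log2 CPM minus the control mean for the 8 S100 genes, their mean and the mean of 77 ribosomal protein genes (rows) in each of the 6 libraries (columns, with total counts). ZEB1 replicates 1 and 2 are high in most rows, up to 1.30 for S100A4, while ZEB1 replicate 3 stays between -0.13 and 0.14.

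Ratios of counts within a library need no scaling, and they showed the unequal movement directly. S100A6 had 4.48, 6.05 and 5.31 counts for each count of S100A11 in the controls and 7.95, 6.07 and 4.66 in ZEB1 replicates 1, 2 and 3. The ratio was highest in ZEB1 replicate 1, while ZEB1 replicate 3 lay inside the control range. S100A10 had 0.304, 0.321 and 0.352 counts for each count of ANXA2, its partner, across the controls, against 0.354, 0.328 and 0.312 in ZEB1 replicates 1, 2 and 3, so the groups overlapped. S100A11 had 7.600, 6.49 and 7.002 counts for each count of ANXA1 across the controls, against 5.26, 4.82 and 6.52 in ZEB1 replicates 1, 2 and 3, lower in replicates 1 and 2 and just inside the control range in replicate 3.

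The median log2 fold change of the S100 genes fell most, among single libraries left out, without ZEB1 replicate 1, and it changed sign without replicates 1 and 2. Without replicate 1 it was 0.09, with 6 above 0. With replicates 1 and 2 left out together it was -0.09, with 3 of 8 above 0; the lone ZEB1 library is then assumed to vary as the controls do. Without replicate 2 alone it was 0.41, with all 8 above 0. Without replicate 3 the median was 0.53, and S100A2 and S100A13 passed, where 2.40% of all genes tested in that setting passed as higher and 3.38% in either direction. In a fit of all 6 libraries, trends of each library with the length, GC content and abundance of transcripts were taken out together. The part of each trend was not tested. The median was then 0.10, with 5 above 0. S100A13 (0.52), S100A4 (0.48) and S100A2 (0.46) were among those above, and S100A6 (-0.18) and S100A11 (-0.40) were below. That fit uses limma on log2 CPM, and limma-voom with no trend removed gave a median of 0.25. None of the 8 passed in it.

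**Figure D4:**
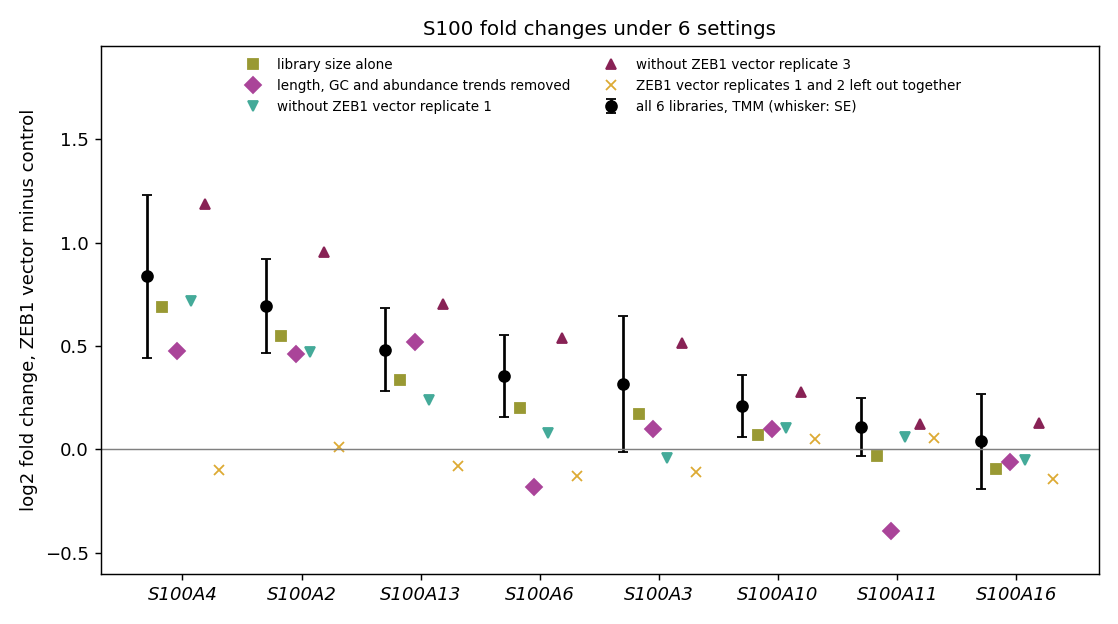
Log2 fold change (ZEB1 vector minus control, y axis) of the 8 S100 genes under the 6 settings plotted: all 6 libraries (black, with SE), library size alone, trends removed, and without ZEB1 replicate 1, replicate 3, or replicates 1 and 2. Among these, values without ZEB1 replicate 3 are the highest for all 8 genes, at up to 1.19 for S100A4, and those with ZEB1 replicates 1 and 2 left out together lie between -0.14 and 0.05.

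Partners and receptors of S100 proteins did not share one direction. Of 27 such genes 21 were tested, 11 above and 10 below 0, with a median log2 fold change of 0.01. The edgeR test called 0 of them, with 2 higher and 1 lower at p below 0.05 before adjustment, where 5.83% and 3.57% of all genes tested were. Over the 21 genes, 3 were higher and 1 lower without overlap of the groups, where 6.96% and 8.16% of all genes tested were. ANXA2, the partner of S100A10, had 900 ± 51.0 CPM (SD, n = 3) under the control vector, against 1021 ± 59.4 CPM (SD, n = 3) under ZEB1, with no overlap of the groups and a log2 fold change of 0.18 (SE 0.14). CACYBP, which binds S100A6, had 331 ± 17.3 and 437 ± 109 CPM (SD, n = 3), a log2 fold change of 0.39 (SE 0.17, adjusted p = 0.462). MYH9, the heavy chain of the myosin that S100A4 binds, had a log2 fold change of -0.25 (SE 0.16). The other well counted partners were BSG (-0.21), ANXA5 (0.29) and the protease CTSB (0.01), whose sign changed between settings. ANXA1 (0.46, SE 0.18) and the p53 regulator MDM2 (-0.79, SE 0.29) were singled out after their values were seen, as the other genes with an unadjusted p under 0.05, and their adjusted p were 0.392 and 0.348. The receptor gene AGER was counted 12, 13 and 14 times across the controls, against 2, 0 and 13 times in the shallower ZEB1 libraries. Its log2 fold change was -0.07 with a large error (SE 1.07, edgeR adjusted p = 0.991). TLR4 was counted 111, 81 and 128 against 21, 25 and 78 times, a log2 fold change of 0.13 (SE 0.35).

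Other genes of EF-hand proteins were likewise split. Of 43 listed, 39 were tested, 20 above and 19 below 0, with a median log2 fold change of 0.01. The edgeR test called 0, and at an unadjusted p below 0.05 it had 4 higher and 3 lower, where 5.83% and 3.57% of all genes tested were. The most abundant were the myosin light chain MYL6 (0.30, SE 0.16), the calmodulin gene CALM2 (0.33, SE 0.15), the actinins ACTN1 (-0.21, SE 0.16) and ACTN4 (-0.47, SE 0.16), and CALU (-0.02) and RCN1 (-0.02) of the secretory pathway, whose signs changed between settings. CALM2 had 897 ± 17.4 CPM (SD, n = 3) under the control vector, against 1125 ± 134 CPM (SD, n = 3) under ZEB1. Its groups did not overlap, nor did those of ACTN4, which was lower in all 3 ZEB1 libraries. Over the 39 genes, 4 were higher and 4 lower without overlap, where 6.96% and 8.16% of all genes tested were. ACTN4 passed as lower without ZEB1 replicate 3 (adjusted p = 0.0269), where 119 of the 12095 genes tested passed as lower and 3.38% passed in either direction.

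The genes most like the mean of the 8 S100 genes over the 6 libraries, among 5575 with a mean count of at least 100, were MRPL32 (Pearson's r of log2 CPM 0.999), RBX1 (0.997), HNRNPC (0.997), METTL9 (0.996) and PSMA1 (0.994). MRPL32 encodes a mitochondrial ribosomal protein, RBX1 a subunit of cullin ubiquitin ligases, HNRNPC a nuclear RNA-binding protein and PSMA1 a proteasome subunit. MRPL32 had 76.5, 102 and 91.1 CPM across the controls, against 167, 131 and 84.0 CPM in ZEB1 replicates 1, 2 and 3, the same order of libraries within each group as the mean of the 8. Likeness over 6 libraries picks the extreme of many genes and is a description only.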

How the data were processed

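RNA of TC28a2 cells, 3 control vector and 3 ZEB1 vector libraries, was measured by DRUG-seq, a low-cost high-throughput RNA-seq, per the labels' protocols. The authors deposited raw counts per Entrez gene ID; HISAT2, featureCounts, Subread and GRCh38 are named in the submitters' processing notes without versions. The sources used here do not give the strand setting, the annotation release or whether molecular identifiers were collapsed, so counting floors may understate the error. A RefSeq table of GRCh38.p14 named 27745 of 28395 IDs.

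The test on these counts was that of edgeR 4.0.16 (R 4.3.3; quasi-likelihood, robust, TMM, filterByExpr, group only), two-sided, with Benjamini-Hochberg adjustment over the 11329 genes tested and a threshold of 0.05. Each SE was derived from a gene's fold change with its F statistic, and log2 CPM had a prior count of 2. Alternatives used DESeq2 1.42.0, limma 3.58.1, other scalings and filters, thinning to 1277632 counts, a replicate block, removal of library trends (lowess span 0.3) and left-out libraries. The steps were tested on simulated data.

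Members, lists and tests were chosen with earlier results of these data known. Besides ZEB1 and the 8 genes, the text names called genes and the 6 best counted of the partner and EF-hand lists, other S100 genes with counts, and the 5 most similar genes. AGER, TLR4, ANXA1, MDM2 and the cell type markers named singly, among others, fall outside this rule.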

Additional observations from a re-analysis of the deposited data

How the results depend on the processing

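Over 28 named genes and 16 alternative settings, 408 values kept sign and side of the threshold, 32 changed sign and 8 newly passed. Where DESeq2 gave a gene no adjusted p, as for S100A3, S100A4, S100A16, METTL9 and MDM2, only the sign was compared. ZEB1 was called in each setting. Without a low-count filter 127 genes passed, 1 of them among the 8 (S100A2); DESeq2 called 174 and limma-voom 22, none among the 8. On leaving out single libraries, 1 to 409 genes passed and 0 to 2 of the 8, the highest values without ZEB1 replicate 3, and the median of the 8 was 0.092 to 0.53. With ZEB1 replicates 1 and 2 left out together 2 genes passed and the median of the 8 was -0.088. In that setting signs turned for S100A3 (-0.11), S100A4 (-0.098), S100A6 (-0.13), S100A13 (-0.078), S100A16 (-0.14), BSG (0.0049), MYH9 (0.018), CALU (0.13), RCN1 (0.11), MRPL32 (-0.11), METTL9 (-0.072) and PSMA1 (-0.10). Signs also turned with library size alone for S100A11 (-0.029), S100A16 (-0.094) and CTSB (-0.11), with trends removed for S100A6 (-0.18), S100A11 (-0.40) and S100A16 (-0.060), without a filter for CTSB (-0.0079), with thinning for CALU (0.049) and with DESeq2 for RCN1 (0.0014). On leaving out single libraries S100A3 was at -0.041 to 0.52, S100A16 at -0.050 to 0.13, CTSB at -0.043 to 0.074, CALU at -0.12 to 0.12 and RCN1 at -0.10 to 0.018. RBX1 passed without a filter, with DESeq2 and without ZEB1 replicate 3, and ACTN4 and MRPL32 without ZEB1 replicate 3. The cause of these differences was not tested.

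Samples with the same replicate number did not deviate together (r -0.032, -0.0095 and 0.0087 over genes). Deviations were taken from each group's own mean, which holds these r near 0 on average, so the check cannot exclude pairing. With the replicate block 1 gene passed, 0 of the 8, and the median of the 8 was 0.31. No sample correlated best with its own number. Depth limits S100A4 and S100A3 most, with 363 and 567 counts in all, and the S100 genes under the filter were not tested.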
